A study of Mus musculus with 4 samples.

Results

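Of the 35275 genes in the count table of this liver study, 9 are output genes of the circadian clock, chosen by symbol: Dbp, Tef, Hlf, Nfil3, Rora, Bhlhe40, Bhlhe41, Ciart and Usp2. Each symbol was found on 1 row. The circadian clock is a transcriptional loop in which the CLOCK and ARNTL (BMAL1) proteins activate genes through E-box elements, among them their own repressors, so that transcript levels rise and fall over the day. DBP, TEF and HLF are the PAR bZIP transcription factors, which carry this rhythm to D-box elements of metabolic genes in liver, and NFIL3 (E4BP4) binds the same D-boxes as a repressor. The nuclear receptor RORA activates ROR elements, which the REV-ERB repressors also bind. BHLHE40 and BHLHE41 (DEC1 and DEC2) and CIART (CHRONO) repress E-box activation, and Usp2 encodes a deubiquitinase whose transcript cycles with the clock in many tissues.

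Liver RNA came from 4 groups of female mice aged 26 weeks, injected with vehicle or with AApoAII amyloid fibrils and then kept sedentary or given interval training (IT) on a treadmill for 16 weeks. The sedentary and IT mice are called VS and VI after vehicle, and FS and FI after fibrils. All groups carried the amyloidogenic Apoa2c allele. The sample labels give the strain as AKR/J, and the paper gives R1.P1-Apoa2c with a SAMR1 background. RNA was extracted from the joined liver pieces of 4 mice per group, so 16 mice gave 4 libraries, 1 per group, and no spread between mice was measured. Organs were collected within a day of the end of training, and the sources used here do not give the hour of day of each collection. A difference in the hour of sampling between pools and a difference in level at the same hour cannot be told apart.

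The total count was between 23442935 reads in VS and 28814802 in FS. Levels are given as CPM, the reads of a gene per 1e+06 reads of its library after TMM scaling, and intervals are 95% intervals (exact Poisson for a level, exact conditional binomial, or Clopper-Pearson, for a log2 ratio). They cover counting error only, since each group is 1 pooled library. The reads carry no molecular identifiers and several can come from 1 molecule, so the intervals may be too narrow even for counting error. The hepatocyte markers, 6 of 6 found, summed to between 147422 and 168778 CPM. The 12 skeletal muscle markers summed to 77.2 CPM in VS against 10.2 in VI, and 1.12 in FS against 1.07 in FI, so VS held the most muscle transcript, and Tnnc2 was at 0 in every library. Kupffer cell markers, 7 of 8 found, summed to 208 CPM in VS against 260.2 in VI, and 324 in FS against 307 in FI, with none at 0. Markers of B cells, neutrophils, and T and NK cells summed to at most 4.44 CPM in any library, and those of adipose tissue to at most 0.041 CPM. Endothelial markers summed to between 135 and 157 CPM, stellate cell markers to between 164 and 197 CPM, and cholangiocyte markers to between 12.6 and 20.1 CPM.

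Promoter windows from RefSeq (build GRCm38.p6) that run from 250 bases before to 50 bases after the annotated start were found for 8 of the 9 genes, 9 windows in all, since Tef has 2 starts. Bhlhe40 had no window. The windows were searched on both strands for the exact E-box CACGTG, the D-box letters TTATGTAA and TTACGTAA, and the ROR core AGGTCA. The E-box was found in 3 of the 8 genes, beside 8.09% of all 27025 genes, and in 4 of the 9 windows, beside 7.15% of all 32851 windows. It occurred once in each of the Tef windows, once in Bhlhe41 and 3 times in Ciart, and 0.0883% of all windows hold 3 or more. No D-box was found in any of the 9 windows (1.06% of all windows hold one), and the ROR core was found once, in Nfil3, 12 bases before the start (16.3% of all windows). The Ciart, Tef and Bhlhe41 windows are printed because they hold the matches, with the E-box in capitals, and the Dbp window because that gene differed most with training. These are matches of letters and say nothing on binding.
Ciart, chr3:95882179-95882478, minus strand: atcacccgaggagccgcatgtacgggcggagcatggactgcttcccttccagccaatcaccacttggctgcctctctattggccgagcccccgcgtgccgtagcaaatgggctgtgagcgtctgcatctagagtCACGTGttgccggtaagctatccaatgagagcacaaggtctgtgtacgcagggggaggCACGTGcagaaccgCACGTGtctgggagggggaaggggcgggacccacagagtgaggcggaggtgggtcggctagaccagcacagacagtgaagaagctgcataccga
Tef, start 1, chr15:81802423-81802722, plus strand: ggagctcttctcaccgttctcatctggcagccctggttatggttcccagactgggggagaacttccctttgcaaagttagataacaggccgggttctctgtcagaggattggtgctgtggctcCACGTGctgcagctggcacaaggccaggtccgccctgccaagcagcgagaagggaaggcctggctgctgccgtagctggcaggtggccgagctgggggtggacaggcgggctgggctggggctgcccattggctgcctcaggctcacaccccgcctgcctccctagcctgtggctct
Tef, start 2, chr15:81811164-81811463, plus strand: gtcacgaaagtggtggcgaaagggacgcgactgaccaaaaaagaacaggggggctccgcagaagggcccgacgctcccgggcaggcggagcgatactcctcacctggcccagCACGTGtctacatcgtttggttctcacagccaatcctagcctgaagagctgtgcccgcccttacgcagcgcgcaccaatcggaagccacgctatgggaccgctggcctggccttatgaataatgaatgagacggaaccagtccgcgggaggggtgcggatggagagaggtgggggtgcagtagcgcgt
Bhlhe41, chr6:145865371-145865670, minus strand: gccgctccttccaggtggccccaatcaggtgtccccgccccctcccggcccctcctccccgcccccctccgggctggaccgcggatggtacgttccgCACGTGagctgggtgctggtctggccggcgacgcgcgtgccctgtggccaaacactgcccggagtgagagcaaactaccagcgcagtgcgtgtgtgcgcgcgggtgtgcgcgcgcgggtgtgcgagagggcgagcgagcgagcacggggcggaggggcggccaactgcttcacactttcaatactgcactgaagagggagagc
Dbp, chr7:45704997-45705296, plus strand: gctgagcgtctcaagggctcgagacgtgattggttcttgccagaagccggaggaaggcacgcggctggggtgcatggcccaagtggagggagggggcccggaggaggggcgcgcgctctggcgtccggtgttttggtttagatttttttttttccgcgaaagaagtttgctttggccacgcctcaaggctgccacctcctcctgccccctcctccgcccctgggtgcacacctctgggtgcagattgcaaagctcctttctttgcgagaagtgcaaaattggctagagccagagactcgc

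**Figure D1:**
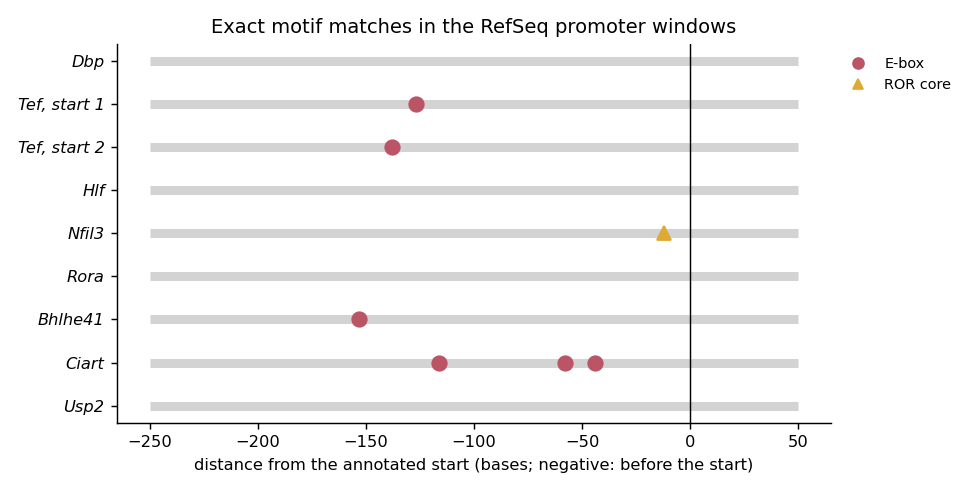
Positions of exact motif matches in the 9 RefSeq promoter windows of 8 clock output genes, on an axis of bases from the annotated start (0). The 3 E-boxes of Ciart lie 116, 58 and 44 bases before its start, and those of Tef and Bhlhe41 between 127 and 153 bases before theirs.

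Per unit of gene length, Tef was the most abundant of the 9 transcripts in every library and Bhlhe41 the least. On the FPKM scale (CPM per kilobase of gene, without TMM scaling) Tef had 72.1 in VS against 44.7 in VI, and 54.7 in FS against 50.8 in FI. Dbp, at 57.6 and 46.3 FPKM, had rank 2 in the sedentary libraries, but rank 5 in VI with 12.4 FPKM and rank 4 in FI with 13.9 FPKM. Bhlhe41 stayed between 0.0592 and 0.192 FPKM, and Bhlhe40, its close relative, between 19.9 and 32.1 FPKM. Of the 9 genes, 8 reached 1 CPM in every library. Bhlhe41 passed the filter for ratios (at least 1 CPM in at least 1 library) through FS alone.

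**Figure D2:**
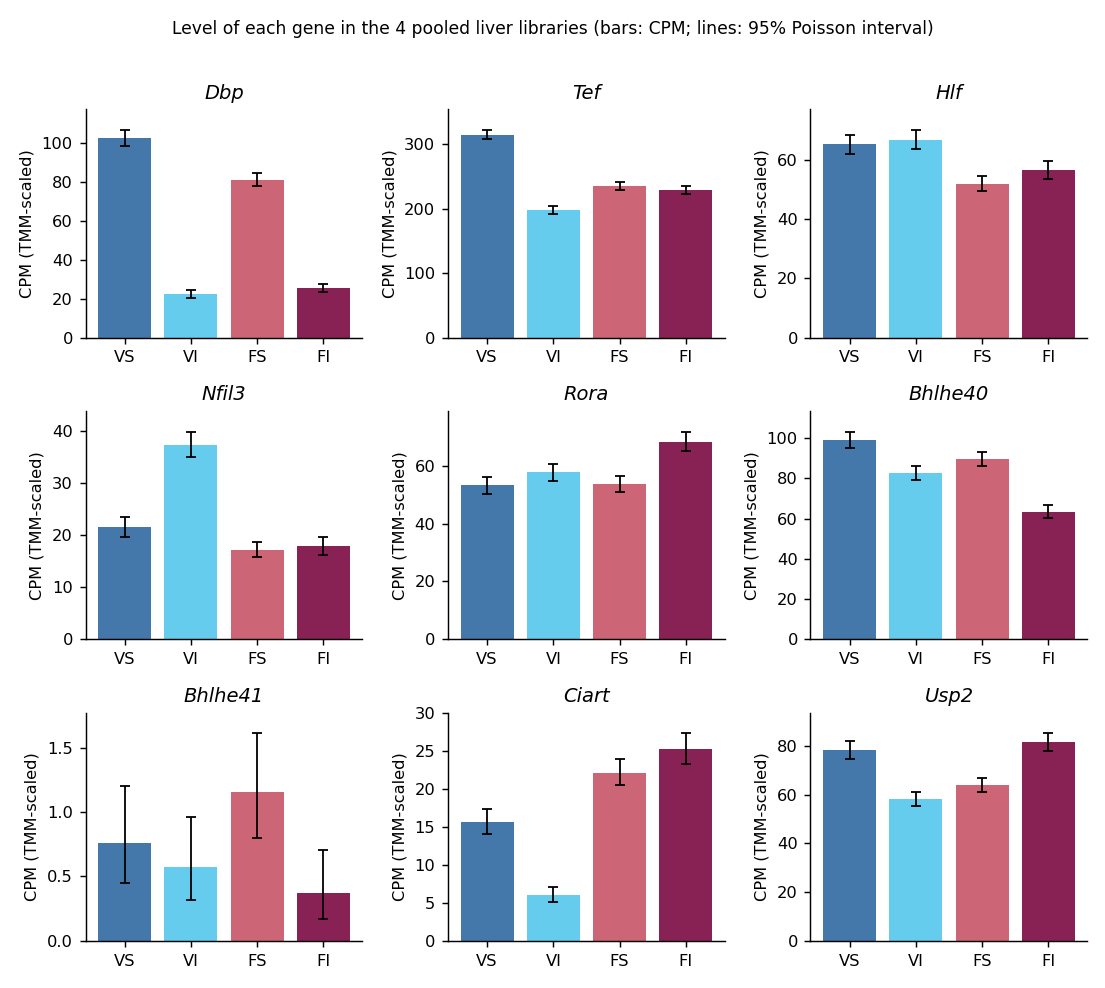
Level in CPM of each of the 9 genes in the VS, VI, FS and FI libraries, with bars for the level and lines for the 95% Poisson interval; each bar is 1 pool of 4 livers. Dbp is low in both IT libraries (22.2 and 25.5 CPM), Nfil3 is high and Ciart low in VI alone (37.3 and 5.99 CPM).

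Dbp, the D-site binding protein and the most strongly cycling PAR bZIP gene of liver, was the gene of the 9 that differed most with IT. It lies on chromosome 7 from 45705088 to 45710155 (plus strand, mm10). It had 2414 counts in VS against 542 in VI, and 2388 in FS against 617 in FI, which correspond to 102 CPM (98.2 to 106), 22.2 CPM (20.4 to 24.2), 80.9 CPM (77.7 to 84.2) and 25.5 CPM (23.5 to 27.6). Both IT libraries were thus below both sedentary libraries, whether fibrils had been given or not. In vehicle livers the log2 ratio of IT to sedentary was −2.20 (−2.34 to −2.06), a 4.59-fold lower level, and it was −1.66 (−1.80 to −1.54) in fibril livers, 3.17-fold lower. Among 12180 expressed genes these were the ranks 34 and 68 from the lowest ratio. Between fibril and vehicle libraries Dbp differed less, at −0.34 (−0.42 to −0.26) without IT and 0.20 (0.03 to 0.37) with IT on the log2 scale.

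The test used was a model with additive terms for IT and for fibrils, fitted with edgeR (quasi-likelihood) to 11760 genes, which leaves the interaction as its only residual (1 degree of freedom). The SE and p-values of this model do not measure the spread between mice. In the model Dbp fell with IT by 1.93 on the log2 scale (SE 0.15, edgeR adjusted p = 0.00183), lower in both IT libraries. It was the 1 gene called for IT of the 8 that could be tested, beside 1.34% of all genes (0.672% higher and 0.663% lower). At an unadjusted p below 0.05 there were 2, Dbp and Bhlhe40, beside 14.5%. For fibrils 0 of the 8 were called, beside 4.59% of all genes, and 3 (Hlf, Nfil3 and Ciart) had an unadjusted p below 0.05, beside 21.1%. The fibril term of Dbp was −0.09 (SE 0.15, edgeR adjusted p = 0.78). With IT as the only term, 2 libraries against 2, the IT term of Dbp was −1.94 with an adjusted p of 0.0973 (edgeR), and no gene of the table was called. The last exon of Dbp shares bases with Sphk2 on the opposite strand, 539 in GENCODE M21, and the sources used here do not say whether counting used the strand. Sphk2 had between 1210 and 1321 counts in the 4 libraries.

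Tef, the thyrotroph embryonic factor and the most abundant PAR bZIP transcript, lies on chromosome 15 from 81802421 to 81826861. It had 315 CPM (308 to 322) in VS against 198 (193 to 204) in VI, and 235 (229.7 to 241) in FS against 229 (223 to 235) in FI. VS was the highest library and VI the lowest, while FS and FI had overlapping intervals. VI was below VS at a log2 ratio of −0.67 (−0.72 to −0.62), and in FI versus FS the ratio was −0.04 (−0.09 to 0.01), where the interval includes 0. FS was below VS by −0.42 (−0.47 to −0.37) on the log2 scale. The IT term of Tef was −0.35 (SE 0.16, edgeR adjusted p = 0.38), which averages the lower level in VI with the near-equal levels of FI and FS.

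Hlf, the hepatic leukemia factor, lies on chromosome 11 from 90336536 to 90390895 and was the PAR bZIP gene that differed least. It had 65.3 CPM (62.0 to 68.6) in VS against 66.8 (63.6 to 70.1) in VI, and 52.0 (49.4 to 54.7) in FS against 56.7 (53.8 to 59.8) in FI. Both fibril libraries were below both vehicle libraries, by a log2 ratio of −0.33 (−0.43 to −0.22) without IT and of −0.24 (−0.34 to −0.13) with IT. With IT the ratios were 0.03 (−0.07 to 0.13) and 0.13 (0.02 to 0.23). The fibril term was −0.28 (SE 0.11, edgeR adjusted p = 0.19), which did not pass.

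Nfil3, whose product represses the D-box genes that the PAR bZIP factors activate, lies on chromosome 13 from 52967209 to 52981073. Its level was 21.4 CPM (19.6 to 23.4) in VS against 37.3 (34.9 to 39.8) in VI, and 17.2 (15.7 to 18.7) in FS against 17.8 (16.2 to 19.6) in FI. VI stood above the other libraries, and the fibril libraries FS and FI differed by less than their counting error. VI exceeded VS by 0.80 (0.64 to 0.96) on the log2 scale, rank 309 from the highest ratio, and the FI versus FS ratio was 0.05 (−0.14 to 0.24), which turned to −0.02 with total counts. FI was lower than VI by −1.06 (−1.23 to −0.90) on the log2 scale. The fibril term was −0.70 (SE 0.19, edgeR adjusted p = 0.0882) and the IT term 0.43 (SE 0.19, edgeR adjusted p = 0.35). Nfil3 is also transcribed in immune cells. The 8 markers of T and NK cells summed to 2.07 CPM in VS against 1.48 in VI, and 2.27 in FS against 1.74 in FI, with Ncr1 at 0 in FI, and their part in the result, like that of the Kupffer cell markers above, was not tested.

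Set against each other per unit of length, the PAR bZIP transcripts and Nfil3 gave a ratio that does not depend on the scaling of libraries. The FPKM of Dbp, Tef and Hlf together were 13.3 times that of Nfil3 in VS against 3.77 times in VI, and 12.7 times in FS against 8.69 times in FI. The sedentary libraries had nearly the same ratio, and the ratio was lowest in VI, where the PAR bZIP sum was 68.8 FPKM (141 in VS) and Nfil3 was 18.3 FPKM (10.7 in VS). In FI the sum was 74.5 FPKM (111 in FS), with Nfil3 at 8.58 FPKM (8.68 in FS). Dbp made up 40.7% of the PAR bZIP sum in VS and 41.9% in FS, but 17.95% in VI and 18.7% in FI. The share of Hlf was 8.25% and 8.54% in the sedentary libraries and 17.1% and 13.2% in the IT libraries.

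**Figure D3:**
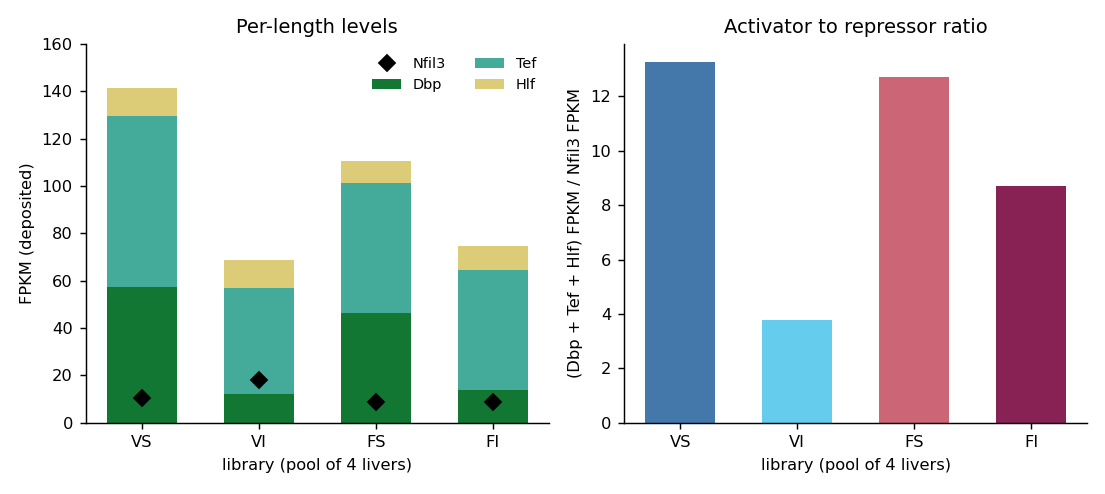
Left, deposited FPKM of Dbp, Tef and Hlf stacked for each library, with Nfil3 as diamonds; right, the ratio of the stacked sum to Nfil3. The ratio is 13.3 in VS and 12.7 in FS, against 3.77 in VI and 8.69 in FI; each library is 1 pool, so no error between mice is shown.

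Ciart, which encodes the repressor CHRONO and carries the 3 E-boxes printed above, lies on chromosome 3 from 95878503 to 95882251. It had 15.6 CPM (14.1 to 17.3) in VS against 5.99 (5.06 to 7.05) in VI, and 22.1 (20.5 to 23.9) in FS against 25.2 (23.3 to 27.3) in FI. VI was the lowest library by far, and both fibril libraries were above both vehicle libraries. VI was below VS at a log2 ratio of −1.38 (−1.67 to −1.10), a 2.60-fold lower level, and FI was above FS at 0.19 (0.03 to 0.35). FI exceeded VI by 2.07 (1.81 to 2.34) on the log2 scale, 4.20-fold and rank 38 from the highest ratio, and FS exceeded VS by 0.50 (0.31 to 0.69). Since its IT ratios went in opposite directions, the additive model left a large error, with an IT term of −0.52 (SE 0.38, edgeR adjusted p = 0.62) and a fibril term of 1.24 (SE 0.39, edgeR adjusted p = 0.17).

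Usp2, the deubiquitinase gene on chromosome 9 from 44067021 to 44095627, crossed over in the same way on a smaller scale. Its level was 78.2 CPM (74.7 to 81.9) in VS against 58.1 (55.1 to 61.2) in VI, and 64.0 (61.2 to 67.0) in FS against 81.4 (77.8 to 85.1) in FI. With IT the log2 ratio was −0.43 (−0.53 to −0.33) in vehicle livers and 0.35 (0.25 to 0.44) in fibril livers. With fibrils it was −0.29 (−0.38 to −0.20) in sedentary and 0.49 (0.39 to 0.59) in IT livers. No ratio of Usp2 went beyond 1.5-fold, and its IT term was −0.04 (SE 0.18, edgeR adjusted p = 0.95).

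Rora, the ROR element activator on chromosome 9 from 68653786 to 69388246, was the steadiest gene after Hlf. It had 53.3 CPM (50.4 to 56.3) in VS against 57.8 (54.8 to 60.9) in VI, and 53.8 (51.1 to 56.5) in FS against 68.5 (65.2 to 71.8) in FI. FI was the highest library, with log2 ratios of 0.35 (0.25 to 0.45) against FS and 0.25 (0.14 to 0.35) against VI. VS and FS differed by 0.01 (−0.09 to 0.12), and with DESeq2 size factors this small difference changed sign. The IT term of Rora was 0.23 (SE 0.12, edgeR adjusted p = 0.41).

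Bhlhe40 lies on chromosome 6 from 108660629 to 108666925. It had 99.1 CPM (95.1 to 103) in VS against 82.6 (79.1 to 86.3) in VI, and 89.7 (86.3 to 93.2) in FS against 63.5 (60.4 to 66.8) in FI. Each IT library was below its sedentary counterpart, with log2 ratios of −0.26 (−0.35 to −0.18) in vehicle and −0.50 (−0.59 to −0.41) in fibril livers. Its IT term of −0.38 (SE 0.12) had an unadjusted p of 0.0115 and an adjusted p of 0.2 in edgeR, so it did not pass. Its relative Bhlhe41, on chromosome 6 from 145858243 to 145865558, had 18 counts in VS against 14 in VI, and 34 in FS against 9 in FI. These are 0.762 CPM (0.452 to 1.20), 0.575 (0.314 to 0.964), 1.15 (0.798 to 1.61) and 0.372 (0.170 to 0.706), and the one contrast whose interval did not reach 0 was FI versus FS, at −1.57 (−2.88 to −0.54). Bhlhe41 was under the filter of the additive model, and 1280 of its 6720 exon bases in GENCODE M21 lie across from Gm43909 on the opposite strand. As RNA of whole liver was measured, fewer cells of a type and less RNA per cell cannot be told apart for any of the 9 genes.

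Counted per contrast, 2 of the 9 genes differed by more than 2-fold in VI versus VS (Dbp and Ciart, both lower), beside 3.44% of the 12180 expressed genes (1.9% lower). In FI versus FS 2 genes did so (Dbp and Bhlhe41, both lower), beside 4.28% of all genes (2.53% lower). As Bhlhe41 passed the filter only through FS, where it was highest, its lower level in FI is no support, and with a filter at 5 CPM the count was 1, Dbp. In FI versus VI there were 2 genes (Ciart higher, Nfil3 lower), beside 4.54% (2.59% higher and 1.95% lower). None of the 9 went beyond 2-fold in FS versus VS, where 5.8% of all genes did. These contrasts have no test, since each compares 1 pool with 1 pool. Contrasts also share libraries: VS is the reference of VI and of FS, and FI is compared with both FS and VI. The median log2 ratio of the 9 genes was −0.40 in VI versus VS, 0.05 in FI versus FS, −0.29 in FS versus VS and 0.20 in FI versus VI, and that of all expressed genes was between 0.00 and 0.02. The counting interval excluded 0 for 7, 7, 7 and 8 of the 9 genes in that order, against 44%, 48.2%, 52.9% and 46.9% of all genes. A counting interval narrows with read count, and the shares of all genes were not matched for it, so the comparison says little about the 9 genes. The VS library with its muscle transcripts enters the vehicle and sedentary contrasts, and the part of muscle in them was not tested. In FI versus FS both libraries had about 1 CPM of muscle markers. The log2 ratios there were −1.66 (Dbp), −0.04 (Tef), 0.13 (Hlf), 0.05 (Nfil3) and 0.35 (Rora). They were −0.50 for Bhlhe40, −1.57 for Bhlhe41, 0.19 for Ciart and 0.35 for Usp2. This pair differs from VI versus VS in fibrils as well as in muscle transcripts, so these cannot be told apart.

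**Figure D4:**
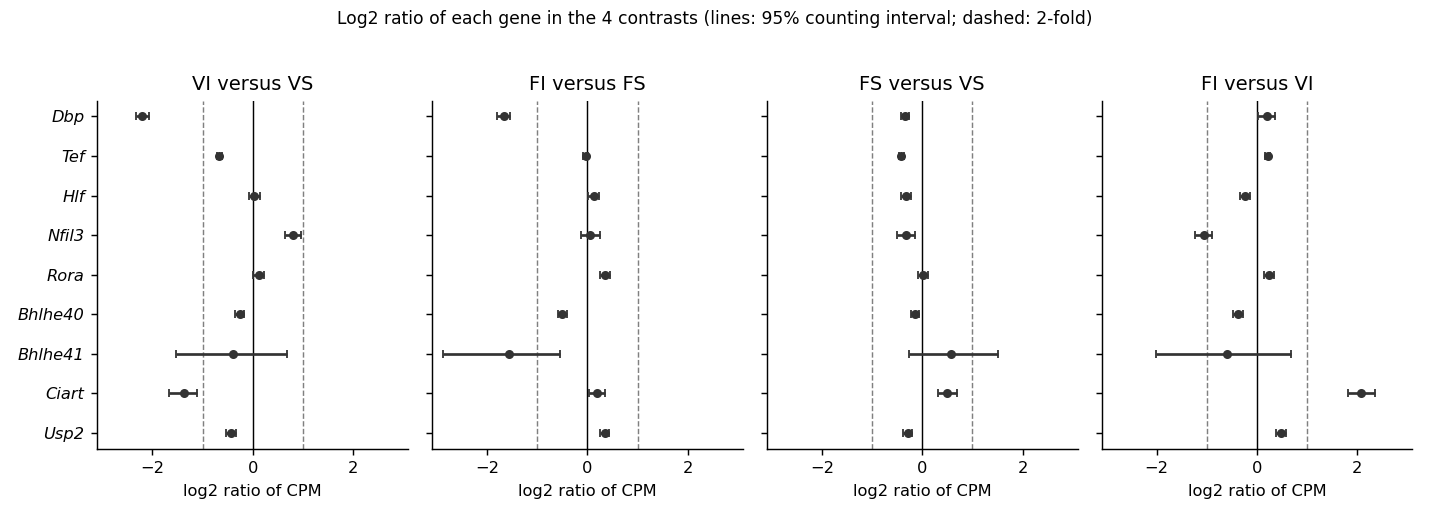
Log2 ratio of CPM of the 9 genes in the 4 contrasts, with points for the ratio, lines for the 95% counting interval and dashed lines at 2-fold. Dbp lies at −2.20 and −1.66 in the IT contrasts, and Ciart at −1.38 in VI versus VS and at 2.07 in FI versus VI; the wide intervals of Bhlhe41 come from its 9 to 34 counts.

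The design also asks whether IT changed a gene alike in vehicle and in fibril livers, and the difference of both IT log2 ratios (fibril minus vehicle) answers this for the pools, with no test since it uses the last degree of freedom. It was 1.57 (1.25 to 1.89) for Ciart, 0.77 (0.64 to 0.91) for Usp2, 0.63 (0.56 to 0.70) for Tef and 0.53 (0.35 to 0.72) for Dbp. For these 4 genes the fibril ratio was the less negative or the positive one. The difference was −0.74 (−0.99 to −0.50) for Nfil3, whose ratio was larger in vehicle livers, and −1.18 (−2.61 to 0.26) for Bhlhe41. Rora had 0.23 (0.08 to 0.38), Bhlhe40 −0.24 (−0.36 to −0.11) and Hlf 0.09 (−0.05 to 0.24). A difference beyond 1 on the log2 scale was found for 2 of the 9 genes, Ciart and Bhlhe41, beside 5.82% of all expressed genes. That of Bhlhe41 has an interval that includes 0, comes from a gene that passed the filter only through FS, its highest library, and was −0.13 on FPKM with a pseudocount of 1, so Ciart alone remains without it.

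Other clock genes are given beside these values, from lists written from general knowledge but with earlier results of these data known. Of 6 E-box clock genes (Per1, Per2, Per3, Nr1d1, Nr1d2 and Cry2), 1 fell with IT in the additive model and none rose, and of 3 testable ROR element genes (Arntl, Clock and Cry1) 2 rose and none fell, beside the shares of all genes given above (edgeR). The list names come from general knowledge and not from the promoter windows. In the windows found for these genes, the exact E-box was in Per1 and Cry1, and the ROR core in Per1, Nr1d2, Arntl and Clock. With fibrils none of the E-box genes passed, and Cry1 fell. Nr1d1, which encodes the repressor REV-ERB alpha, fell by 2.43 on the log2 scale (SE 0.19, edgeR adjusted p = 0.00183), from 30.0 CPM in VS to 7.10 in VI and from 49.0 in FS to 7.19 in FI. Arntl rose by 2.14 (SE 0.25, edgeR adjusted p = 0.0105), from 1.44 to 6.65 CPM and from 1.12 to 4.71 CPM. Cry1, a repressor of CLOCK and ARNTL, rose by 1.48 (SE 0.18, edgeR adjusted p = 0.0119), from 13.8 to 31.5 CPM and from 6.37 to 22.3 CPM, and its fibril term was −0.78 (SE 0.17, edgeR adjusted p = 0.0483). Clock was beyond 2-fold in VI versus VS alone, at 1.05 (0.82 to 1.28) against 0.18 (0.00 to 0.37) in FI versus FS. Clock, like Nfil3, thus had the higher ratio in vehicle livers, a difference with no test. The medians of the E-box genes were −0.57 among vehicle and −0.18 among fibril livers, and those of the ROR element genes 1.19 and 1.80. Per2, a repressor of CLOCK and ARNTL, had 53.0 CPM in VS against 29.5 in VI, and 24.6 in FS against 26.6 in FI, with an FS versus VS ratio of −1.11 (−1.24 to −0.97). Npas2 was below the filter, with between 0 counts in both IT libraries and 8 in FS, where a count of 0 allows up to 0.123 CPM in VI and 0.124 in FI.

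**Figure D5:**
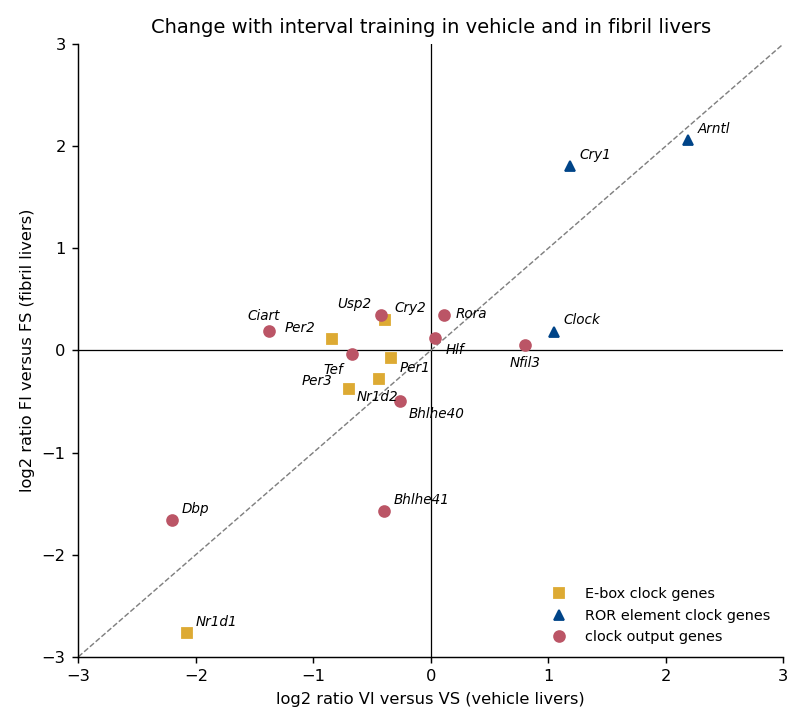
Log2 ratio of CPM with IT in vehicle livers (VI versus VS, horizontal) against fibril livers (FI versus FS, vertical) for the 9 clock output genes (circles), 6 E-box clock genes (squares) and 3 ROR element clock genes (triangles); the dashed line marks equal ratios. Dbp and Nr1d1 lie at the lower left and Arntl and Cry1 at the upper right, while Ciart (−1.38, 0.19) and Nfil3 (0.80, 0.05) lie near the horizontal axis.

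Liver genes listed for control by the D-box factors were read next, and this control can be direct or run through other factors. Their promoters were not searched for D-boxes. Of 8 listed genes (Alas1, Por, Nr1i3, Cyp2a4, Cyp2a5, Cyp2b10, Cyp7a1 and Fgf21), 1 rose with IT and none fell (edgeR), while with fibrils 1 rose and 3 fell, beside 2.64% of all genes higher and 1.96% lower. Cyp2b10, a xenobiotic-metabolizing P450, had 11.2 CPM in VS against 31.5 in VI, and 41.2 in FS against 116 in FI, the opposite order to Dbp within each pair, and rose by 1.49 with IT (SE 0.11, edgeR adjusted p = 0.00183) and by 1.88 with fibrils (SE 0.11, edgeR adjusted p = 0.000704). The genes that fell with fibrils were Fgf21, a hepatokine that NFIL3 represses, Nr1i3, which encodes the nuclear receptor CAR, and Cyp2a5, whose reads may be split with its close copy Cyp2a4. They fell on the log2 scale, with values of −1.77, −1.03 and −1.11 (SE 0.23, 0.12 and 0.14, edgeR adjusted p = 0.00857, 0.00647 and 0.0084). Cyp7a1, the rate-limiting enzyme of bile acid synthesis, was low in FI alone, with 114 CPM in VS against 112 in VI, and 107 in FS against 34.1 in FI. Of 4 genes controlled by ROR alpha (Cyp7b1, Cyp8b1, G6pc and Apoc3), none passed with IT and 1 fell with fibrils, Cyp8b1 (−0.65, SE 0.12, edgeR adjusted p = 0.0273), which was named after its values were seen. G6pc, the glucose-6-phosphatase gene, had 206 CPM in VS against 381 in VI, and 181 in FS against 694 in FI, with an IT term of 1.41, which did not pass (SE 0.24, edgeR adjusted p = 0.0542).

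The genes whose pattern over the 4 libraries was most like that of a clock output gene were found by the root-mean-square difference of log2 CPM, centred on the mean of the 4 libraries, among genes with at least 5 CPM in a library. For Dbp they were Mup9 (0.15), Nsdhl (0.27) and Fam47e (0.27), of which Mup9 is uncertain, since its reads may be split among near-identical family members. Nsdhl, an enzyme of cholesterol synthesis, had 15.5 CPM in VS against 5.66 in VI, and 14.9 in FS against 4.96 in FI. For Ciart they were Mustn1 (0.21), Il1rn (0.22) and Steap4 (0.23). Il1rn, which encodes the interleukin-1 receptor antagonist, had 14.5, 7.55, 21.3 and 32.6 CPM in VS, VI, FS and FI. For Nfil3 they were 6720427I07Rik (0.10), Nfkbil1 (0.12) and Dct (0.12), and for the low Bhlhe41 Neat1 (0.04), Cyp3a44 (0.10) and Rab36 (0.11). Neat1, a nuclear noncoding RNA, had 135 CPM in VS against 98.7 in VI, and 188 in FS against 68.2 in FI. No other clock output gene was among these nearest patterns. Between the 9 genes themselves, Tef and Usp2 had the smallest difference (0.19).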

How the data were processed

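RNA-seq was made from liver of female mice, with tissue of 4 mice pooled in each of 4 groups (VS, VI, FS and FI), 1 library per group. Read counts per gene were deposited by the authors without normalization, and the authors derived FPKM from them: all 69722 FPKM values above 0 equalled count over gene length and total count within 1e-04. The submitters' processing notes name fastp 0.23.2, STAR 2.5, HTSeq 0.6.1 and the build mm10.

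Further steps used edgeR 4.0.16, limma 3.58.1 and DESeq2 1.42.0 in R 4.3.3. After TMM scaling, log2 ratios with a prior of 0.5 counts were formed for the 12180 genes that reached 1 CPM in any library; with 1 library per group they have no test. The model with additive terms for fibrils and IT (3 coefficients) was fitted by robust quasi-likelihood in edgeR to the 11760 genes that reached 1 CPM in 2 or more libraries, and p-values were adjusted over all of them by Benjamini-Hochberg. It was tested on simulated data first, for the IT term. There 100% of 4-fold changes but only 58% of 2-fold changes were called, and 9 of 167 calls were false. A gene that was not called can thus still differ. The SE of a term was its size over the square root of its quasi-likelihood F statistic. Intervals for a difference of log2 ratios came from the Poisson errors of the 4 counts.

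The 9 genes and the lists (26 further clock and target genes, 65 cell markers) were chosen with earlier results of these data known. All 9 genes are reported; 2 further list genes are not reported here and were left out of the counts and medians of their lists. Other list genes are named where they differed by more than 2-fold, at most 6 per contrast, and similar genes as the 3 nearest patterns, given for genes whose own range exceeded 1 on the log2 scale. Of the 9 genes, 7 have the same start and end in GENCODE M21 as in the deposited table. Settings tried besides were scaling by DESeq2 size factors or total counts, a pseudocount of 1 or 0.1 on FPKM, a prior of 5 counts, other filters, a 1.5-fold threshold, DESeq2, limma-voom, no robust estimation and each factor alone. Whether the 6 genes with exons that overlap a gene of the opposite strand share reads with it could not be read from these files.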

Additional observations from a re-analysis of the deposited data

Results flagged for a closer look

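Some genes changed direction between vehicle and fibril or between sedentary and IT livers, each with counting intervals that exclude 0 on both sides, and none of these differences was tested across mice. With IT, Ciart was lower in vehicle and higher in fibril livers, a difference of log2 ratios of 1.57, and Usp2 did the same with 0.77. Among all 12180 expressed genes, 6.61% had opposite IT directions with both intervals off 0, against 2 of these 9 genes. With fibrils, Usp2 (0.77), Tef (0.63) and Dbp (0.53) were lower in sedentary and higher in IT livers, 3 of 9 genes beside 4.67% of all genes. The difference is the same number for both factors by construction. The fibril ratios of these 3 genes were at most 0.49 in size, and each difference rests on all 4 pools. Both shares of all genes depend on read count, for which they were not matched.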

How the results depend on the processing

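The 36 log2 ratios of the 9 genes were recomputed under 5 other scalings or priors, 180 values in all. Of these 174 stayed inside the counting interval, and the sign changed for 4 values of 2 ratios near 0, Nfil3 in FI versus FS and Rora in FS versus VS. The number of genes beyond 2-fold in VI versus VS was 2, and 4 at a 1.5-fold threshold, where Tef and Nfil3 were added and 11.6% of all genes passed. In FI versus FS it was 2, but 1 with FPKM and a pseudocount of 1 or 0.1 and 1 with a filter at 5 CPM, since Bhlhe41 was lost, so that count rests on the 9 counts of Bhlhe41 in FI. The call of Dbp for IT was kept under DESeq2, limma-voom, no robust estimation, DESeq2 size factors and no filter, and with IT as the only term 0 of the genes were called (adjusted p of Dbp 0.0973, 643 genes at an unadjusted p below 0.05). For fibrils 0 of the 8 genes tested were called by edgeR, and 0 by DESeq2 or limma-voom. At an unadjusted p below 0.05 there were 3 by edgeR, 1 by DESeq2 and 3 by limma-voom. Without a filter on low counts 2 of 9 were called, Nfil3 (adjusted p = 7.3e-05) and Ciart (adjusted p = 0.0445, edgeR). Over all genes, calls for IT were 157, 241 with DESeq2 size factors and 740 without a filter, and calls for fibrils 540, 1519 without a filter and 8 with fibrils as the only term. Without a filter, between 20.2% and 22.9% of genes were beyond 2-fold. The cause of these shifts was not tested. With Dbp alone, the ratio to Nfil3 was 5.40 in VS against 0.676 in VI, and 5.33 in FS against 1.62 in FI. With Tef and Hlf without Dbp it was 7.86, 3.09, 7.39 and 7.07. Differences of IT ratios kept their sign for all 9 genes with FPKM, with DESeq2 size factors and in CPM. No paired analysis was possible because each group has 1 library. Contrasts that use VS, the library with muscle transcripts, cannot be formed without it.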

Other observations

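Of 4 listed kinases and ubiquitin ligases (Csnk1d, Csnk1e, Fbxl21 and Btrc), none differed by more than 2-fold in any contrast and none passed the additive model for IT or for fibrils (edgeR, where 2 unadjusted p values of Fbxl21, 0.0416 and 0.0162, were below 0.05). Csnk1d, the casein kinase that phosphorylates PER proteins, had 69.1 CPM in VS against 66.01 in VI, and 71.1 in FS against 74.04 in FI. Fbxl21, a ubiquitin ligase subunit for CRY proteins, had 6.82 and 4.52 CPM in the vehicle and 4.13 and 3.1 CPM in the fibril libraries, sedentary first; Csnk1d and Fbxl21 were chosen for mention after their values were seen.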
